A study of Homo sapiens with 6 samples.

Results

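KLF5 binding sites that were listed in Calu-3 cells without a counterpart in 16HBE14o- cells and without a CEBPB peak over them are described here. The sites were selected on their overlaps: a peak of the Calu-3 KLF5 list was included when it shared no base with any peak of the 16HBE14o- KLF5 list and none with any peak of the Calu-3 CEBPB list. This held for 637 of the 1510 Calu-3 KLF5 peaks (42.2%, exact 95% confidence interval 39.7 to 44.7), out of 74158 peaks in the 3 lists together. The sites were chosen by these overlaps, so the counts are a description and carry no test. Of the 1510 peaks, 76.4% shared no base with a 16HBE14o- KLF5 peak and 56.3% shared none with a CEBPB peak.

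The data came from chromatin immunoprecipitation followed by sequencing (ChIP-seq) in untreated human bronchial epithelial lines grown in DMEM with 10% FBS. Calu-3 is a lung adenocarcinoma line and 16HBE14o- an immortalised bronchial epithelial line. The groups, of 2 samples each, were Calu-3 immunoprecipitated for KLF5, 16HBE14o- immunoprecipitated for KLF5, and Calu-3 immunoprecipitated for CEBPB. The KLF5 antibody was a published rabbit one in 1 of the Calu-3 samples, and in the other the commercial one used for both 16HBE14o- samples, so cell line and antibody cannot be fully told apart. CEBPB was precipitated with an antibody of its own. Each list was made by the authors from both samples of a group, and no value below has an error between samples. The depth behind the lists is unknown, so a site missing from a list was not shown to be unbound. The 16HBE14o- list held 3262 peaks and the CEBPB list 69386, of which 78.9% and 46.3% had a q-value no higher than 0.05.

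KLF5 is a zinc finger transcription factor of the Krüppel-like family that binds GC-rich and CACCC-type DNA elements. It is known for its part in the growth and differentiation of epithelia, the airway lining among them. CEBPB is a basic leucine zipper factor that binds as a dimer and is known as a regulator of inflammatory genes in many cell types. The sites described here are those of the first factor at which the second was not listed in the same line. They are given by hg19 position, with no gene assigned.

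The sites tended to lie low in the Calu-3 KLF5 list. Their median signal, a deposited value per peak whose normalization was not stated, was 25.8, with quartiles of 21.6 and 31.5, against a median of 28.4 (23.4 and 36.9) in the other 873 Calu-3 KLF5 peaks. As a percentile of the whole list, with 100 for the highest peak, the median was 43.1 (95% interval of the median 37.5 to 47.3). It was 48.7 (45.0 to 51.9) in Calu-3-only peaks with CEBPB. In peaks shared with 16HBE14o- without CEBPB it was 64.6 (56.3 to 71.1), and in peaks found in all 3 lists 73.9 (68.5 to 79.3). The difference among classes was mostly one between shared and unshared peaks. Within unshared peaks the sites without CEBPB had the lower median, but the intervals with and without CEBPB overlapped. A q-value above 0.05 was listed for 121 of the 637 sites (exact 95% interval 16.0% to 22.3%), against 81 of the other 873 peaks (7.44% to 11.4%).

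Low signal was a tendency and not a rule. The list was cut by signal into 10 parts of 151 peaks. The Calu-3-only sites without CEBPB made up 62.9% (54.7 to 70.6) of the lowest part and 25.2% (18.5 to 32.9) of the highest. In the parts between, the share moved between 33.1% and 51.7% without a steady order. The highest part still held 38 of these sites, and 10 of them had a signal of 60 or more, as did 42 of the other peaks.

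**Figure D1:**
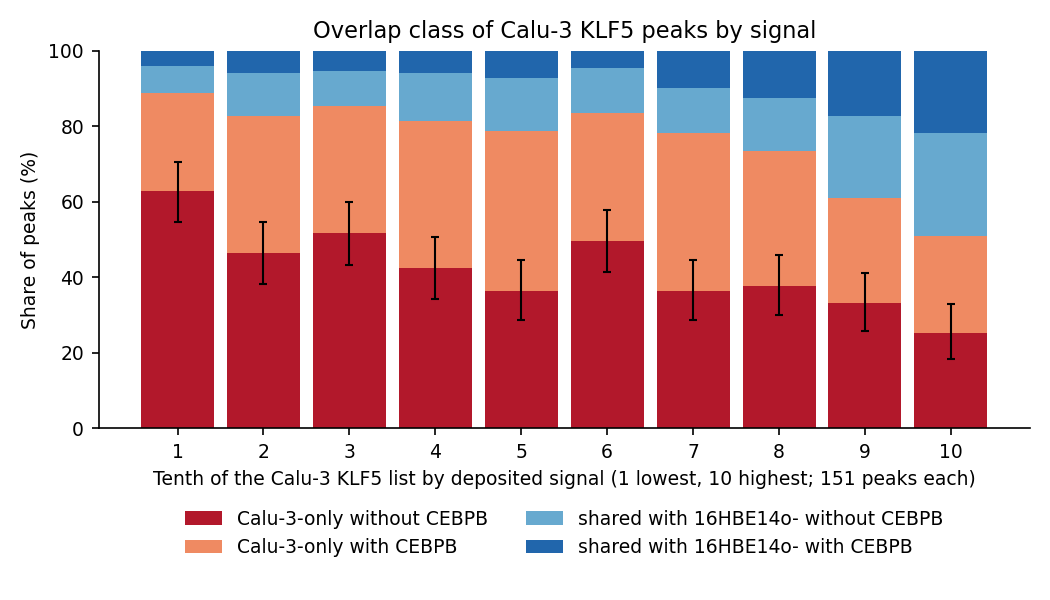
Share of Calu-3 KLF5 peaks in each overlap class (y axis, percent) in 10 equal parts of the list by deposited signal (x axis, lowest to highest, 151 peaks each); black bars are exact 95% intervals of the lowest segment. The Calu-3-only sites without CEBPB take 62.9% of the lowest part and 25.2% of the highest, where the peaks found in all 3 lists take 21.9%.

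The 20 sites of highest signal had ranks of 2 to 89 among the 1510 Calu-3 peaks and all carried the highest deposited score. The strongest lay on chromosome 7 at 2563873 to 2564091, with a signal of 178. Its nearest 16HBE14o- KLF5 peak was 108 kb away and its nearest CEBPB peak 1.96 kb. The next was on chromosome 3 at 193720896 to 193721175 with a signal of 104. A CEBPB peak at percentile 97.9 of its own list stood only 218 bp from this site, so the absence of CEBPB there refers to the peak itself and not to the locus. The third, on chromosome 8 at 21988720 to 21988999, had a signal of 95.3, a 16HBE14o- KLF5 peak 5.81 kb away and its nearest CEBPB peak at 10.2 kb.

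Some of the 20 were far from any 16HBE14o- KLF5 peak. The site on chromosome 3 at 50306349 to 50306628 (signal 78.2) was 7.53 kb from a CEBPB peak and 1818 kb from a 16HBE14o- KLF5 peak. A site on chromosome 2 at 206619615 to 206619894 (signal 58.2) was 21.4 kb from CEBPB and 3974 kb from 16HBE14o- KLF5. On chromosome 17, the site at 72711329 to 72711608 (signal 55.0) was 21.0 kb from CEBPB and 319 kb from 16HBE14o- KLF5. Others were close to either list, such as the site on chromosome 22 at 50342961 to 50343240 (signal 62.4), which was 126 bp from a CEBPB peak and 1.60 kb from a 16HBE14o- KLF5 peak. In all, 5 of the 20 had a CEBPB peak within 1 kb and 4 had a 16HBE14o- KLF5 peak within 10 kb. Chromosome 3 held 8 of the 20 and chromosome 19 held 4.

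At the margin of the rule, members and excluded peaks were separated by a few bases. The members closest to CEBPB were on chromosome 10 at 47136835 to 47137114, which abutted a CEBPB peak at 0 bp, on chromosome 8 at 126423140 to 126423419 at 3 bp, and on chromosome X at 153599625 to 153599904 at 7 bp. The excluded peaks with the smallest CEBPB overlap shared 5 bp on chromosome 7 at 44836493 to 44836772, and 9 and 10 bp on chromosome 3 at 169939859 and 150846548. For 16HBE14o- KLF5 the closest members stood 3, 34 and 51 bp away, and the smallest overlaps among excluded peaks were 32, 42 and 54 bp. The peaks sharing 32 and 42 bp also shared 251 and 272 bp with a CEBPB peak, so CEBPB alone excluded them too. The CEBPB peak at 3 bp was strong, at percentile 95.4 of its list, and the one at 0 bp weak, at percentile 3.94. Within 100 bp of a CEBPB peak lay 12 members, and 43 excluded peaks shared at most 100 bp with one. For 16HBE14o- KLF5 these numbers were 3 members and 11 excluded peaks. Some of the excluded peaks in both counts overlapped the other list as well.

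CEBPB peaks were seldom far from the sites, and the CEBPB list is by far the longest of the 3. A CEBPB peak was within 1 kb of 93 sites (14.6%, 11.9 to 17.6), within 10 kb of 383 (60.1%, 56.2 to 64.0) and within 50 kb of 604 (94.8%). The nearest CEBPB peaks, where within 1 kb, had a median percentile of 63.4 in the CEBPB list. For the CEBPB peaks that overlapped Calu-3-only KLF5 sites by 1 bp or more it was 97.3. The selection rule itself set these CEBPB peaks apart, so the values are a description. Peaks shared with 16HBE14o- that also lacked CEBPB had a CEBPB peak within 10 kb in 120 of 213 cases (56.3%, 49.4 to 63.1). The difference of 3.79 points had an interval from -3.76 to 11.5, which included 0. The median distance to CEBPB was 7.16 kb in the sites described and 8.20 kb in the shared peaks without CEBPB.

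The 16HBE14o- list was nearer to these sites than to Calu-3-only sites with CEBPB. Both classes lack a 16HBE14o- peak by definition and were separated only by CEBPB, so the distance to 16HBE14o- KLF5 beyond the peak did not enter their separation. A 16HBE14o- KLF5 peak was within 50 kb of 209 of the 637 sites (32.8%, 29.2 to 36.6) and of 132 of the 517 sites with CEBPB (25.5%, 21.8 to 29.5). The difference was 7.28 points, with a Newcombe 95% interval of 1.99 to 12.4. Within 10 kb the shares were 14.9% and 10.8% (difference 4.08 points, 0.161 to 7.90), and within 1 kb they were 3.30% and 3.09% (0.202 points, -1.99 to 2.26). The median distance was 144 kb (114 to 174) for sites without CEBPB and 221 kb (180 to 317) for sites with CEBPB. These intervals and those of the next paragraph treat peaks of one locus as independent and are therefore too narrow.

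That difference was not seen on chromosome 3, where 23 of 144 sites without CEBPB (16.0%) and 15 of 81 with CEBPB (18.5%) had a 16HBE14o- peak within 50 kb. The difference there was -2.55 points, with an interval of -13.6 to 7.22. On the other chromosomes the shares were 37.7% and 26.8%, a difference of 10.9 points (4.87 to 16.8), and whether chromosome 3 differs from them was not tested. Over all chromosomes the difference was 12.6 points in the upper 50% by signal and 12.3 points among peaks of the highest score. Without chromosome 3 beyond 150 Mb, an alternative chosen after seeing the data, it was 11.2 points. In other settings it was smaller. It was 5.61 points (0.347 to 10.8) when peaks up to 250 bp apart counted as overlapping. With CEBPB peaks of q at or below 0.05 it was 5.55 points (0.191 to 10.8). It no longer excluded 0 when peaks up to 1000 bp apart counted as overlapping (3.50 points, -1.72 to 8.73).

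**Figure D2:**
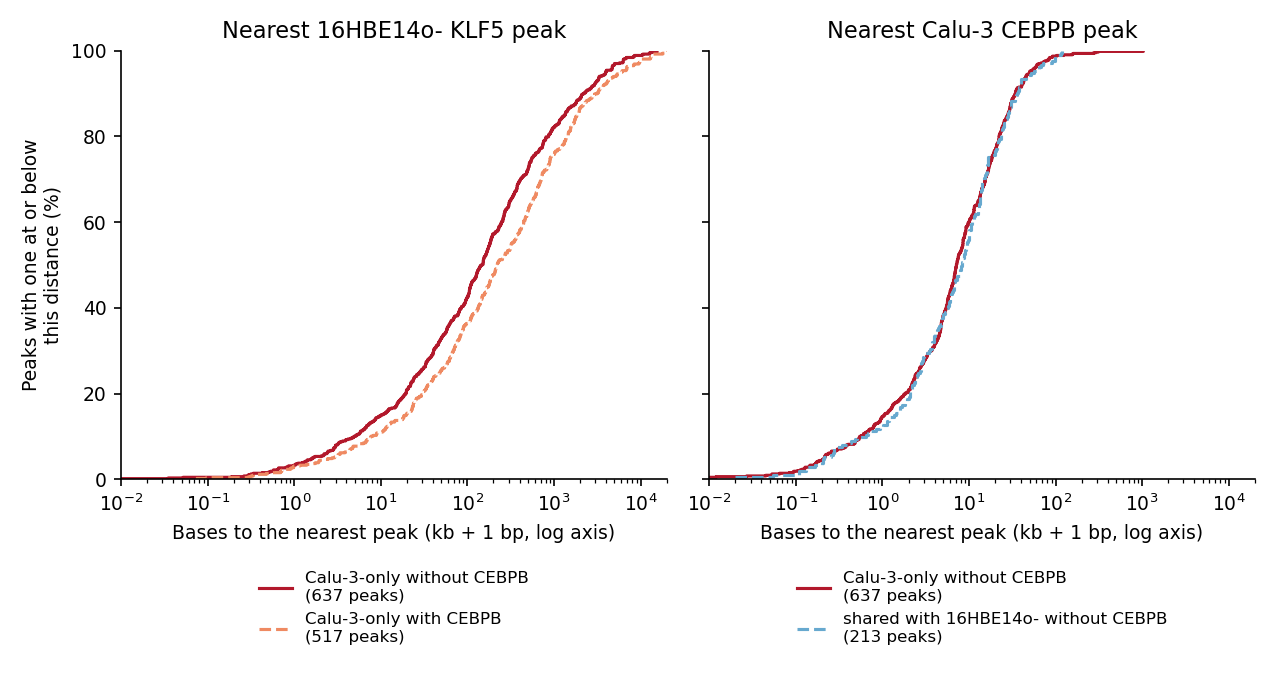
Cumulative share of peaks (y axis, percent) by the number of bases to the nearest 16HBE14o- KLF5 peak (left) or Calu-3 CEBPB peak (right), on log axes in kb with 1 bp added. The Calu-3-only sites without CEBPB (solid) run left of the Calu-3-only sites with CEBPB in the left panel, with medians of 144 and 221 kb. In the right panel they lie along the shared peaks without CEBPB, with medians of 7.16 and 8.20 kb.

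The sites had a close KLF5 neighbour more often than Calu-3-only sites with CEBPB, although most had none. Another Calu-3 KLF5 summit stood within 10 kb of 166 of the 637 sites (26.1%, 22.7 to 29.7), against 74 of 517 Calu-3-only sites with CEBPB (14.3%, 11.4 to 17.6) and 169 of all 873 other Calu-3 KLF5 peaks (19.4%). The difference from sites with CEBPB was 11.7 points (7.12 to 16.2). On chromosome 3 alone it was 6.25 points (-5.97 to 17.2), which included 0. Over all chromosomes it was 6.72 points (3.36 to 10.03) within 1 kb and 16.4 points (10.8 to 21.9) within 100 kb. Against shared peaks without CEBPB, 65 of 213 of which had a neighbour within 10 kb (30.5%), the difference was -4.46 points (-11.7 to 2.34). Against peaks found in all 3 lists (21.0%) it was 5.08 points (-2.99 to 11.9), and both intervals included 0. A difference in grouping was thus seen from the Calu-3-only sites with CEBPB and could not be shown from either class of shared peaks. When overlapping entries of a list were merged first, the difference from sites with CEBPB was 9.71 points (5.40 to 13.9). Peaks of one locus are not independent, so these intervals are too narrow. Among peaks of the highest score the difference from sites with CEBPB was 19.9 points (12.8 to 26.8). Those peaks still included 7 of the sites that were weaker than an entry they overlapped. In the upper 50% by signal the difference was 14.9 points (8.77 to 20.9).

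Of the 637 sites, 124 had another such site within 10 kb, 38 had a shared peak without CEBPB, 29 a Calu-3-only peak with CEBPB and 21 a peak found in all 3 lists. Joining the sites at that distance left 566 places, 513 of them with a single site and 53 with 2 or more. Part of this came from overlapping entries: 16 of the 53 places were 1 pair of entries that shared bases, and 92 of the 124 sites had within 10 kb another such site with which they shared no base. The sites make up 42.2% of the list from which neighbours were drawn. Shared peaks without CEBPB make up 14.1% of it, Calu-3-only peaks with CEBPB 34.2% and peaks found in all 3 lists 9.47%.

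**Figure D3:**
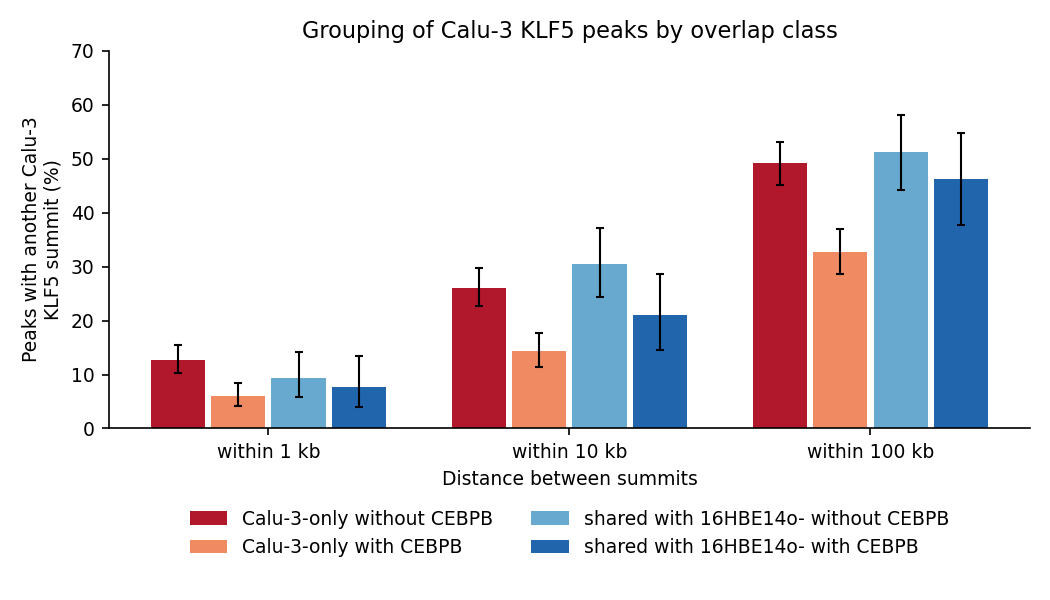
Share of Calu-3 KLF5 peaks (y axis, percent) with another Calu-3 KLF5 summit within 1, 10 and 100 kb (x axis), by overlap class, with exact 95% intervals. The Calu-3-only sites without CEBPB exceed the Calu-3-only sites with CEBPB at each distance (26.1% and 14.3% within 10 kb).

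The largest groups differed in strength and in surroundings. On chromosome 8, 6 sites between 145015687 and 145027210 had signals of 33.2, 18.7, 32.4, 24.6, 45.8 and 33.8. Within 10 kb of this stretch lay 5 peaks of the 16HBE14o- KLF5 list, the nearest 0.804 kb from a site, so both lines had KLF5 peaks at this locus without a shared base at these 6 positions. On chromosome 10, 6 sites between 47108439 and 47137114 were weak, with signals of 15.2, 18.0, 11.5, 21.0, 19.6 and 21.8. Of these, 4 had a q-value above 0.05, and the nearest 16HBE14o- peak was 51.4 kb away. Of the same 6 sites, 2 were entries that shared bases with each other. This stretch also held 1 Calu-3 KLF5 peak of another class and 2 CEBPB peaks, and the stretch on chromosome 8 held 1 of each.

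Groups of 4 sites lay on chromosomes 11, 7 and 3. The group on chromosome 11 between 1244048 and 1258795 had signals of 33.7, 28.2, 47.8 and 50.3 and was 506 kb from the nearest 16HBE14o- KLF5 peak. That on chromosome 7 between 965268 and 976342 had signals of 49.2, 14.2, 27.4 and 26.9, and that on chromosome 3 between 184315650 and 184320655 had 28.6, 37.5, 6.89 and 19.3. The chromosome 11 group was the only one of these with every signal above the list's median of 27.2. The strongest site of all belonged to a group of 3 on chromosome 7 between 2563117 and 2569725, with signals of 32.9, 178 and 41.6 and no other KLF5 or CEBPB peak inside it.

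A locus on chromosome 3 held sites of several classes side by side. Between 193852227 and 193859526, 3 of the Calu-3-only sites without CEBPB had signals of 57.8, 26.2 and 62.5. Inside the same stretch were 3 further Calu-3 KLF5 peaks of other classes and 3 CEBPB peaks, and 1 peak of the 16HBE14o- list was 1.41 kb from a site. The outer 2 of the sites were only 74 and 86 bp wide. All but 3 of the 637 sites were 280 bp wide, and the third exception was the strongest site, at 219 bp.

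The sites of lowest signal, like the weakest entries of the list as a whole, mostly shared bases with another entry. In the Calu-3 list 72 entries shared bases with another entry, as 36 pairs, and 41 of these entries were sites described here. They formed 20 pairs of 2 such sites, and 1 site was paired with a Calu-3-only peak with CEBPB. Summits of a pair were 199 to 232 bp apart, with a median of 204 bp. Of the 17 sites with a signal below 10, 14 shared bases with another entry, and so did 12 of the other 13 Calu-3 KLF5 peaks with such a signal (26 of 30 over the list). At a signal of 20 or more it was 13 of 534 sites and 11 of 804 other peaks.

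Within the 21 pairs that held such a site, deposited scores differed by at most 1, although signals could differ several-fold. The site of lowest signal, on chromosome 3 at 184319015 to 184319294, had a signal of 6.89 and a score of 1000. It overlapped the site at 184318813 to 184319092, with a signal of 37.5 and the same score. On chromosome 19, the site at 941058 to 941337 had a signal of 10.8 and overlapped the site at 940857 to 941136, with 52.9, again both with a score of 1000. All 4 sites with a signal below 10 and the highest score were such weaker entries of a pair. Counting each pair of 2 sites once would leave 617 sites.

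**Figure D4:**
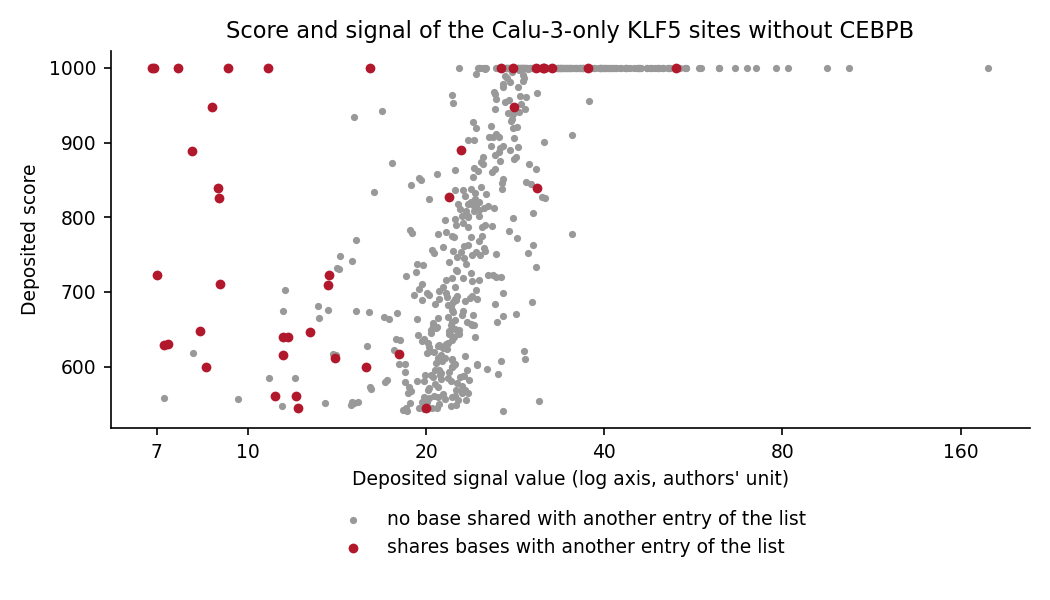
Deposited score (y axis) against deposited signal (x axis, log scale) for the 637 sites; red points share bases with another entry of the Calu-3 KLF5 list. All 4 points with a signal below 10 and a score of 1000 are red, whereas most of the other points climb steeply in score between signals of 20 and 30.

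The sites were unevenly placed over the chromosomes, with chromosome 3 standing out. It held 144 of the 637 sites (22.6%, 19.4 to 26.1) and 99 of the other 873 Calu-3 KLF5 peaks (11.3%, 9.31 to 13.6). The difference was 11.3 points (7.44 to 15.2), and of 24 chromosomes it alone kept an interval clear of 0 once the intervals were widened for 24 comparisons (5.28 to 17.5). At the 95% level chromosome 22 also held more of the sites, with 23 (3.61%) against 16 (1.83%). Chromosomes 4, 6 and 9 held a smaller share of the sites than of the other peaks. The counts were 11 (1.73%) against 30 (3.44%), 9 (1.41%) against 29 (3.32%) and 8 (1.26%) against 29 (3.32%). Seen from the chromosomes, 59.3% (52.8 to 65.5) of the Calu-3 KLF5 peaks on chromosome 3 were Calu-3-only sites without CEBPB. On all other chromosomes together 38.9% (36.2 to 41.7) were. Single chromosomes varied around this, and such a share was not particular to chromosome 3. It was 59.0% (42.1 to 74.4) of 39 peaks on chromosome 22, 53.3% of 60 on chromosome 10 and 21.6% of 37 on chromosome 9.

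Beyond 150 Mb on chromosome 3, 100 of 155 Calu-3 KLF5 peaks were such sites (64.5%, 56.4 to 72.0), whereas up to 150 Mb 44 of 88 were (39.1% to 60.9%). The distal sites were weak, with a median signal percentile of 22.9 and a q-value above 0.05 in 35 of 100. The other Calu-3 KLF5 peaks of this part had a median percentile of 47.0 and a q-value above 0.05 in 23.6%. In all other places these values were 45.6 and 16.0% for the sites, and 56.0 and 8.31% for the other peaks. Lower signal there was thus not particular to the sites. The 16HBE14o- list had few peaks on chromosome 3 (3.46% of its peaks), and the part of this in the result was not tested. Without the distal part, the difference on chromosome 3 between the sites and the other peaks was 2.81 points (0.122 to 5.77). In the upper 50% by signal it was 7.45 points (2.43 to 12.9), and neither interval was widened for the number of chromosomes. Against Calu-3-only sites with CEBPB, which lack a 16HBE14o- peak as well, the share on chromosome 3 was higher by 6.94 points (2.36 to 11.4), of which 6.61 points (2.78 to 10.3) lay beyond 150 Mb.

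**Figure D5:**
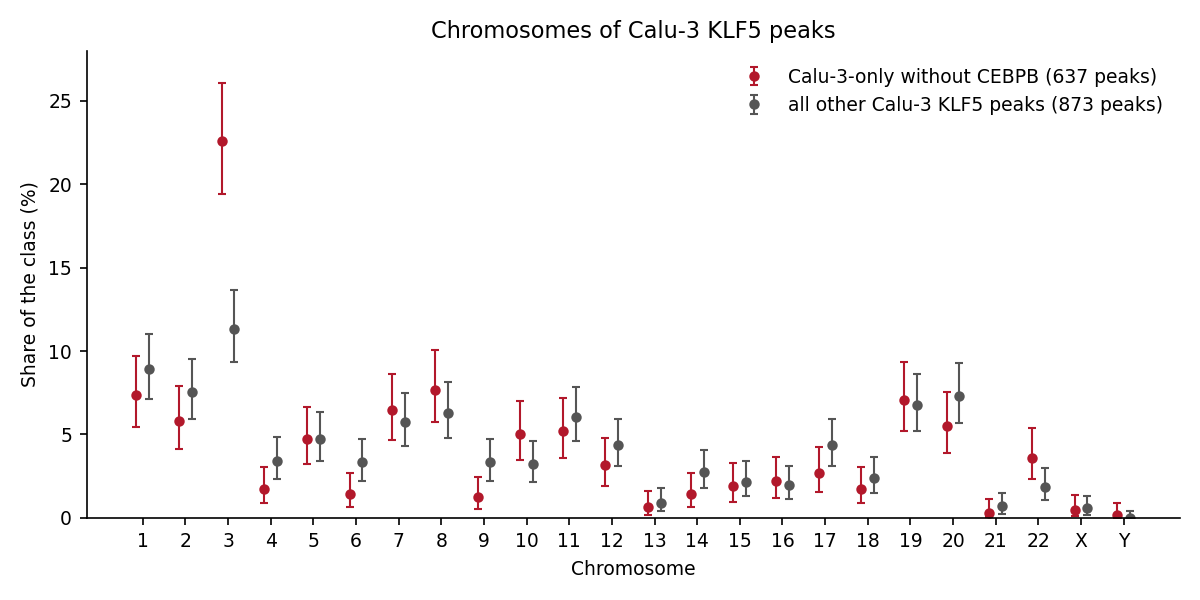
Share of the 637 sites and of the 873 other Calu-3 KLF5 peaks (y axis, percent) on each chromosome (x axis), with exact 95% intervals. Chromosome 3 holds 22.6% of the sites and 11.3% of the other peaks.

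The distal part was not uniform. In bins of 5 Mb, the bin of chromosome 3 from 180 to 185 Mb held the most sites, 20 of its 27 KLF5 peaks, with a median signal percentile of 16.3. From 160 to 165 Mb, 14 of 15 peaks were such sites, at a median percentile of 22.2. From 190 to 195 Mb there were 17 of 28, but with a median percentile of 85.9, and this bin contained 5 of the 20 strongest sites. Other distal bins held no more of the sites than the whole list did (42.2%). From 155 to 160 Mb it was 10 of 24 peaks and from 185 to 190 Mb 5 of 12, both 41.7%. Away from chromosome 3 the fullest bins were chromosome 7 from 0 to 5 Mb, with 18 of 27 peaks at a median percentile of 69.2, and chromosome 8 from 145 to 150 Mb, with 14 of 20 at a median percentile of 52.5. Dense placement thus occurred with weak sites in some bins and with strong sites in others.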

How the data were processed

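KLF5 ChIP-seq peaks of Calu-3 and 16HBE14o- and CEBPB peaks of Calu-3 were analysed as 3 lists on hg19, each made by the authors from both samples of a group. Per the file headers these are peaks of an IDR (irreproducible discovery rate) procedure, named as optimal peaks for KLF5 and without that word for CEBPB, so the stringency of the lists may differ. Each deposited list gave a position, a score, a signal per peak and a summit, and a −log10 value read as a q-value from the column order of the format. KLF5 scores reach 1000 at most. The aligner, peak caller, control and signal normalization are not given in the sources used here, and depth is unknown. Signal was therefore ranked only within its own list.

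A site was a Calu-3 KLF5 peak sharing no base (minimum overlap 1 bp) with either other list. Sites were grouped by joining summits within 10 kb. Named sites were the 20 of highest and the 5 of lowest signal, those nearest the limits of the rule and the largest groups. Shares have exact Clopper-Pearson 95% intervals and differences Newcombe intervals, at 99.79% over 24 chromosomes. They cover counting error only and treat peaks as independent. No test between samples was possible. Sites, comparisons and lists were chosen with earlier results of these data known. Scripts used Python 3.11.15, numpy 2.4.6, scipy 1.17.1 and pandas 2.3.3, and were tested on simulated peaks. Genes, motifs and DNA sequence were not analysed here, since no hg19 genome or annotation was used.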

Additional observations from a re-analysis of the deposited data

How the results depend on the processing

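Against 637 sites, 998 were counted with every list limited to the size of the shortest, 275 in the upper 50% of signal and 248 among peaks of the highest score. The other 10 alternatives gave 493 to 733. The share of the list, 42.2%, was 48.5% when only summits within 100 bp counted as overlap, 47.4% when 50% of the peak had to be covered, and 39.5% and 35.1% when peaks within 250 and 1000 bp counted. It was 45.2% with CEBPB peaks of q at or below 0.05 and 66.1% with lists of equal size. In the upper 50% it was 36.4%, at the highest score 35.7% and without chromosome 3 38.9%. Further alternatives were chosen after seeing the data and gave 39.6% without chromosome 3 beyond 150 Mb and 39.4% among Calu-3 KLF5 peaks of q at or below 0.05. The median signal percentile, 43.1, was 70.9 in the upper 50%, 73.2 at the highest score and 52.6 at q at or below 0.05, which follows from removing low-signal peaks. These percentiles refer to the whole list, so they do not tell how the sites ranked among the peaks kept. The excess within 50 kb of 16HBE14o- KLF5, 7.28 points, was 3.50 points with the 1000 bp rule, an interval that included 0, and the cause was not tested. The other 12 alternatives kept it above 0. The excess in grouping over sites with CEBPB (9.56 to 19.9 points in 13 alternatives) and on chromosome 3 over other Calu-3 peaks (2.81 to 15.8 points in 12) kept intervals above 0. The intervals for chromosome 3 were not widened here for the number of chromosomes compared. Their lower limits were 0.122 points without the part beyond 150 Mb, 2.43 in the upper 50% and 2.54 at the highest score. Whether widened intervals would stay above 0 in these alternatives was not tested.

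No paired analysis was possible because each list pools both samples of its group, and for the same reason leaving out a sample was not possible. Results on transcription start sites and motifs, which needed hg19 sequence or annotation, were not run. Whether a site absent from a list is unbound cannot be read from these lists.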

Other observations

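Weak groups of sites also occurred away from chromosome 3. On chromosome 10 from 45 to 50 Mb, 11 of 14 Calu-3 KLF5 peaks were Calu-3-only sites without CEBPB, with a median signal percentile of 6.95. On chromosome 8 from 30 to 35 Mb, 9 of 10 were, whereas over the whole list 42.2% were. Deposited scores and signals ordered the weakest sites differently, since 4 of the 17 sites with a signal below 10 had the highest score.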
